A study of Rattus norvegicus with 8 samples.

Results

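The MHC class II genes of the rat, their invariant chain Cd74 and their transactivator Ciita were followed in orbitofrontal cortex. They are 6 protein-coding genes of the 34298 genes in the count table, chosen by symbol: RT1-Ba, RT1-Bb, RT1-Da, RT1-Db1, Cd74 and Ciita. The donors were outbred male Sprague-Dawley rats, adults that had arrived at 8 weeks of age. All animals received 1 µl of JetPEI transfection reagent with 5 ng of siRNA in the orbitofrontal cortex, and tissue was taken 7 days later. The siRNA was a scrambled control in 4 animals (replicates 1, 3, 4 and 5) or, in the other 4 animals, matched the backsplice junction of the circular neurexin 3 transcript circNrxn3 (replicates 1 to 4). Both groups carry the infusion and the reagent, and a group without infusion was not analysed here. The design asks which cortical mRNAs differ when this circle is targeted.

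Class II molecules present peptides from endocytosed proteins to CD4+ T cells. Each is a pair of an alpha and a beta chain: RT1-Ba and RT1-Bb encode the pair of the B locus, the rat counterpart of human HLA-DQ, and RT1-Da and RT1-Db1 that of the D locus, the counterpart of HLA-DR. Cd74 encodes the invariant chain, which holds the peptide groove closed and guides the pair to endosomes. Ciita encodes the coactivator that docks on class II promoters and switches them on, among others under interferon gamma. In brain, microglia express class II genes at low levels at rest and raise them when activated, whereas macrophages at the borders of the brain and dendritic cells express them more steadily.

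Class II promoters carry an X box, bound by the RFX complex, and a Y box, an inverted CCAAT motif bound by NF-Y. RefSeq promoter windows (GRCr8) matched 5 of the 6 genes, and Ciita had no entry. They are shown because the 4 class II genes varied together between animals (below), and they run 5′ to 3′ on the strand of the gene and end before the start of the gene model. Capitals mark GCAAC, the core of the X box, and CTGATTGG, the Y box, or ATTGG, its core, on either strand (CCAAT on the other strand).
RT1-Ba: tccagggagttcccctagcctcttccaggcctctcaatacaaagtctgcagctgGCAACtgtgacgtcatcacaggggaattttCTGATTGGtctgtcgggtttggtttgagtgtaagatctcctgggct
RT1-Bb: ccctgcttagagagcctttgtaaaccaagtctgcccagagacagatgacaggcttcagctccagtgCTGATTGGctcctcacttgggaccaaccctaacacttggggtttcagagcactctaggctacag
RT1-Da: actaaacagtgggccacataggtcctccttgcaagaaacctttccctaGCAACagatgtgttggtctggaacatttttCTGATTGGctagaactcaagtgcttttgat
RT1-Db1: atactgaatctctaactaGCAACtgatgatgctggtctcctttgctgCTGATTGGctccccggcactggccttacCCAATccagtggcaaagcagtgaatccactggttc
The RT1-Ba stretch is chr20:4576927-4577056 (plus strand), that of RT1-Bb chr20:4604119-4604248 (minus strand), that of RT1-Da chr20:4515285-4515392 (plus strand) and that of RT1-Db1 chr20:4560183-4560292 (minus strand), all in GRCr8.

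The Y box CTGATTGG lay in the 250 bases before the start in all 4 class II genes, against 3.19% of 33469 promoters. In RT1-Ba and RT1-Da 25 bases, and in RT1-Db1 24 bases, lay between the X box core and the Y box. GCAAC followed by CTGATTGG on the same strand, with 10 to 40 bases between them, occurred in 46 promoters (0.137%), 3 of them these genes. The letters GCAAC alone were in 29.5% of promoters and were not in the RT1-Bb window. Only exact letters were searched, so an X box with other letters would be missed. This does not show that RT1-Bb lacks an X box. Cd74 held GCAAC, 70 bases before the start, and CCAAT, but not the full Y box. By the longest gene model of Cd74, 135 of the 250 bases, this GCAAC among them, lay inside the gene. The letters searched, on both strands, were chosen after the sequences were seen, CTGATTGG contains ATTGG, and a match is a description and not a measured site.

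Libraries held 27589883 to 35221782 counts, and 18274 to 20494 genes had a read. Scrambled replicate 3 stood apart, with the fewest genes detected and the highest summed level of red blood cell genes (2440 CPM, against 359 to 1111 CPM in the other 7). Nrxn3, the host gene of the circle, had 114 to 344 counts in scrambled and 82 to 430 in circNrxn3 siRNA libraries. Libraries of poly-T selected RNA hold mainly linear mRNA, so this does not check the circle. Summed markers of cortical neurons, such as Slc17a7 and Snap25, were at 5506 to 6230 CPM in every library.

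RT1-Da (ENSRNOG00000032844, chromosome 20, 4127644 to 4132616, rn6), the alpha chain of the D locus, was the most abundant of the class II genes. In CPM, counts scaled to a library of 1000000 with TMM factors, it was at 5.58, 1.25, 36.7 and 12.8 in scrambled replicates 1, 3, 4 and 5, and at 20.1, 1.44, 4.43 and 5.64 in circNrxn3 siRNA replicates 1 to 4. Scrambled replicate 4 was highest and scrambled replicate 3 lowest, 29.3-fold apart within the control group, and all 4 values of the other group lay between them.

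RT1-Db1 (ENSRNOG00000033215, chromosome 20, 4087618 to 4097190), its beta chain, was at 1.61, 1.01, 14.2 and 3.43 CPM in the scrambled and at 5.43, 1.14, 1.48 and 2.39 CPM in the circNrxn3 siRNA libraries, in the same order of replicates. The ranking of the 8 libraries was the same as for RT1-Da. The highest was 14.0 times the lowest.

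RT1-Ba (ENSRNOG00000000451, chromosome 20, 4066132 to 4070721), the alpha chain of the B locus, had 15, 0, 255 and 101 counts in the scrambled and 124, 3, 21 and 34 counts in the circNrxn3 siRNA libraries. Its highest library, scrambled replicate 4 at 7.60 CPM, was at least 85.0-fold higher than scrambled replicate 3, taking 3 counts (0.0895 CPM) as the limit that a count of 0 allows in that library. RT1-Bb (ENSRNOG00000032708, chromosome 20, 4039413 to 4049711), its beta chain, had 10, 0, 467 and 44 counts in the scrambled and 33, 3, 5 and 109 counts in the circNrxn3 siRNA libraries. For RT1-Bb the same libraries were at least 156-fold apart. Scrambled replicate 3, with 0 counts of both, was the second deepest library (35191810 counts).

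Cd74 (ENSRNOG00000018735, chromosome 18, 56071478 to 56080849) was at 44.4, 7.60, 217 and 127 CPM in the scrambled and at 140, 8.68, 47.2 and 39.9 CPM in the circNrxn3 siRNA libraries. Scrambled replicate 4, circNrxn3 siRNA replicate 1 and scrambled replicate 5 were the 3 highest, and scrambled replicate 3 and circNrxn3 siRNA replicate 2 the 2 lowest. The highest and the lowest were 28.5-fold apart, both in the scrambled group.

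Ciita (ENSRNOG00000002659, chromosome 10, 5213350 to 5260608) was scarce, with 13, 27, 47 and 6 counts in the scrambled and 16, 6, 8 and 5 counts in the circNrxn3 siRNA libraries. Scrambled replicate 3, the library with the least class II mRNA, had the second highest level of Ciita (0.805 CPM, against 1.40 CPM in scrambled replicate 4).

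**Figure D1:**
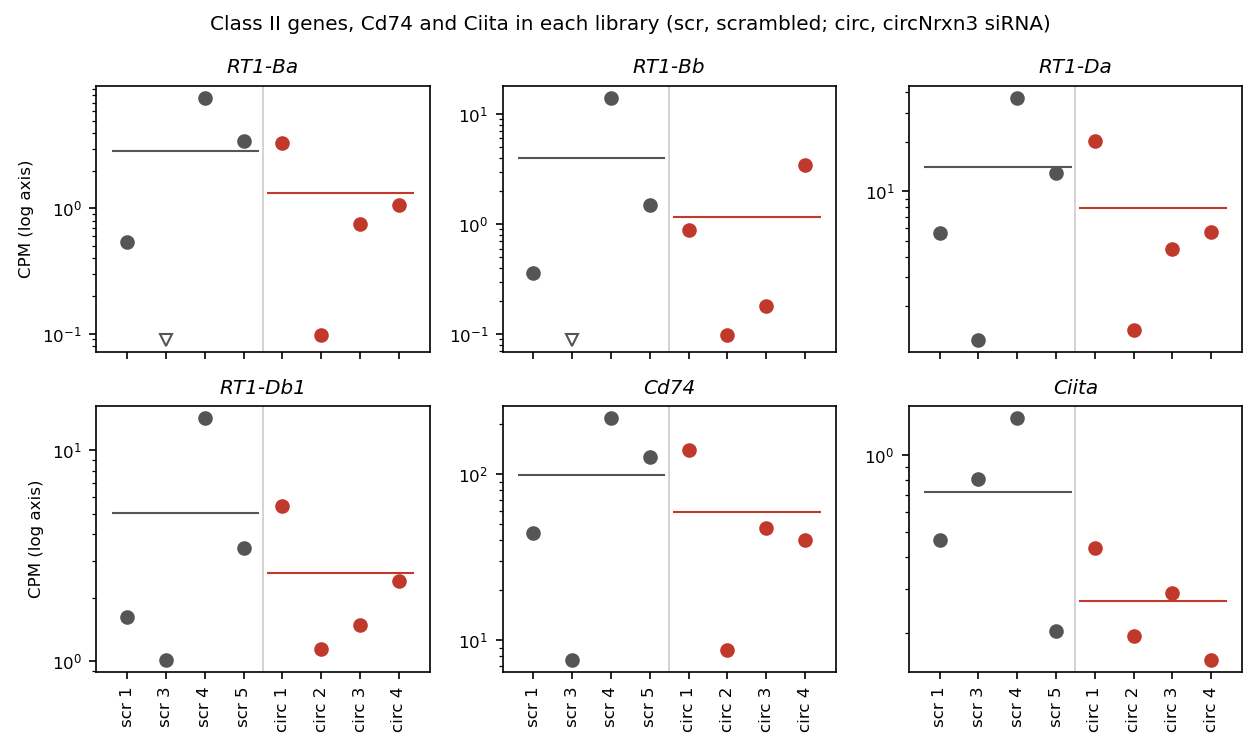
CPM of each gene (log axis) in the 4 scrambled (grey) and 4 circNrxn3 siRNA (red) libraries, 1 point per animal, with horizontal lines at group means and open triangles at 3 counts for libraries with 0 counts. In the 4 class II genes and Cd74 both the highest and the lowest library are scrambled, replicates 4 and 3.

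Per length of the gene model, in the authors' FPKM, mean levels over the 8 libraries ran from Cd74 (56.3) through RT1-Da (4.36), RT1-Ba (1.54), RT1-Db1 (1.19) and RT1-Bb (0.627) to Ciita (0.0890). Cd74 lay above RT1-Da, and RT1-Da above RT1-Ba, in 8 of 8 libraries. RT1-Ba and RT1-Db1 were not told apart in order, with RT1-Ba higher in 5 of 8, and likewise RT1-Bb was above Ciita in 5 of 8. RT1-Db1 was above RT1-Bb in 7 of 8.

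For none of the 6 genes did a difference between the siRNA groups hold after adjustment over all genes tested. All 6 passed the filter on low counts, and 0 of 6 were called at an adjusted p of 0.05 (edgeR quasi-likelihood test, Benjamini-Hochberg adjustment over 16573 genes), where 0% of all genes tested were called. At an unadjusted p under 0.05 stood 1 of the 6, Ciita, which was lower, against 5.59% of all genes (926), or 3.20% counting lower genes alone. DESeq2 called 18 genes; of the 6 it gave an adjusted p for Cd74 alone (0.752) and none for the other 5. Limma-voom called 0 genes. The groups overlapped for each of the 6, whereas they did not overlap for 3.48% of all genes. In this bulk tissue, fewer cells of a type and less RNA per cell cannot be told apart.

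Cd74 averaged 99.0 ± 93.1 CPM in scrambled and 58.9 ± 56.5 CPM in circNrxn3 siRNA libraries (SD, n = 4 each). Its log2 fold change was -0.75, standard error 1.07 (edgeR adjusted p = 0.914). RT1-Da averaged 14.1 ± 15.8 against 7.89 ± 8.30 CPM (SD, n = 4 each). Here the log2 fold change was -0.83, standard error 1.09 (edgeR adjusted p = 0.910). The SD was about as large as the mean in each group. RT1-Db1 had a log2 fold change of -0.95 (standard error 0.86), RT1-Ba -1.12 (1.35) and RT1-Bb -1.77 (1.66), with edgeR adjusted p of 0.866 to 0.902. Log2 fold changes were below 0 for 6 of 6, with a median of -1.03, where 48.7% of all genes lay below 0 and their median was 0.01. The class II genes and Cd74 rank the animals alike, so these are not separate observations of the difference.

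For the 4 class II genes the sign of that difference rested on scrambled replicate 4. Without this library the log2 fold change was 0.27 for RT1-Da, 0.37 for RT1-Db1, 0.90 for RT1-Bb, 0.0044 for RT1-Ba and -0.02 for Cd74. Without circNrxn3 siRNA replicate 1, the highest of its group for all but RT1-Bb, Cd74 stood at -1.63 and RT1-Da at -1.88. RT1-Bb stood at -3.29 without circNrxn3 siRNA replicate 4. Without circNrxn3 siRNA replicate 2 Cd74 stood at -0.39, RT1-Da at -0.49 and RT1-Ba at -0.74, and without scrambled replicate 3 Cd74 stood at -1.15. Where a fit gave an adjusted p for one of the 6, it was at least 0.491; DESeq2 gave one for Cd74 alone.

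Ciita had the smallest p of the 6. Scrambled libraries averaged 0.719 ± 0.517 CPM and circNrxn3 siRNA libraries 0.268 ± 0.122 CPM (SD, n = 4 each). The log2 fold change was -1.41, standard error 0.63 (unadjusted p = 0.0488, edgeR adjusted p = 0.833). The 4 circNrxn3 siRNA values lay below the scrambled median of 0.635 CPM, but scrambled replicate 5, at 0.204 CPM, lay within their range. The value was -0.87 without scrambled replicate 4 and below 0 in each fit that held the gene. At 5 to 47 counts per library, counting error adds to the spread between animals.

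**Figure D2:**
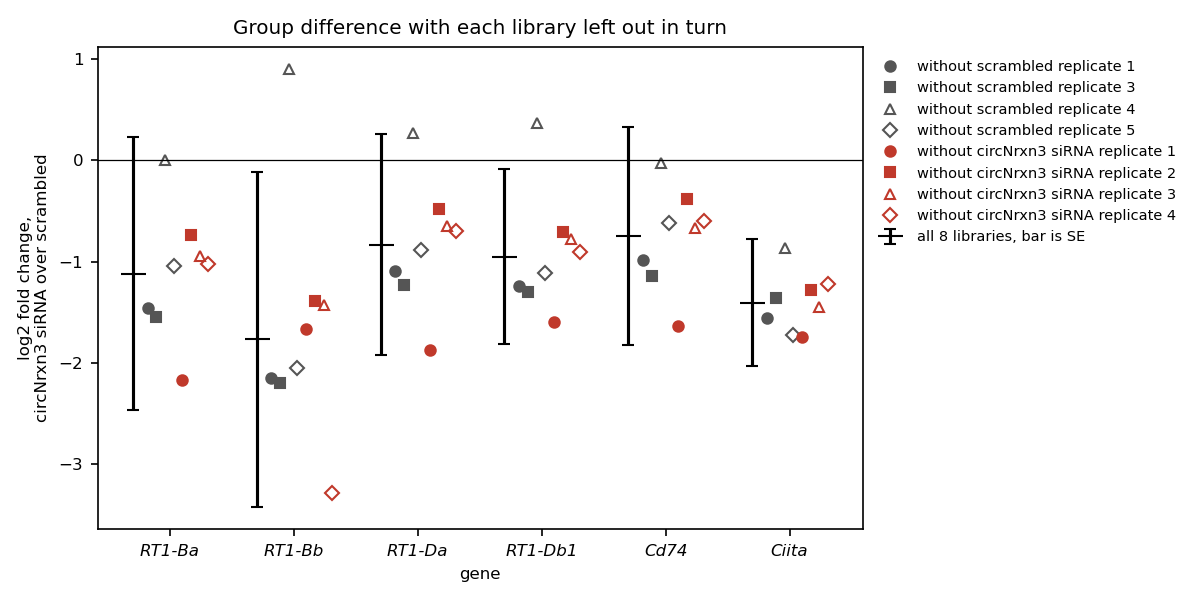
Log2 fold change of circNrxn3 siRNA over scrambled libraries for each gene (vertical axis), with all 8 libraries (black, bar is the standard error) and with each library left out in turn (grey, a scrambled library left out; red, a circNrxn3 siRNA library left out). Without scrambled replicate 4 (open grey triangles) the points of the class II genes lie at 0.0044 to 0.90 and that of Cd74 at -0.02.

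The spread between animals within a group was wide. The SD of log2 CPM within groups was 2.72 for RT1-Bb, 2.52 for RT1-Ba, 1.90 for Cd74, 1.80 for RT1-Da and 1.34 for RT1-Db1, against a median of 0.24 over all genes tested. Of the 16573 genes, 14 had a wider spread than RT1-Bb, 22 than RT1-Ba, 78 than Cd74, 105 than RT1-Da and 373 than RT1-Db1. Cd74 had 255 counts or more in every library, and its biological coefficient of variation in edgeR was 0.972, against 0.129 for the trend at its level. That of RT1-Da was 0.987 against 0.268. Ciita, with 0.554 against 0.518, lay near the trend of genes at its level.

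The class II genes and Cd74 were high and low in the same animals. Over the 8 libraries the 10 pairs among these 5 genes had Pearson r of 0.81 to 0.98 and Spearman rho of 0.71 to 1 in log2 CPM. The pairs share their libraries and these values are descriptions. All 5 lay above their own mean in scrambled replicates 4 and 5 and circNrxn3 siRNA replicate 1, and all 5 below it in scrambled replicates 1 and 3 and circNrxn3 siRNA replicate 2. RT1-Bb was the loosest of them. Its r with Cd74 was 0.81, and 0.58 without the 2 libraries farthest from the median of RT1-Bb. Cd74 lies on chromosome 18, outside the RT1 region, and it had an r of 0.98 with RT1-Da and 0.98 with RT1-Ba.

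Ciita did not follow them. Its 5 pairs with the other genes had r of 0.13 to 0.47 and rho of -0.02 to 0.31. In scrambled replicate 3 it lay above its own mean while the other 5 genes lay below theirs, and in scrambled replicate 5 it lay below while the others lay above. With 5 to 47 counts per library a weak correlation is not a finding.

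**Figure D3:**
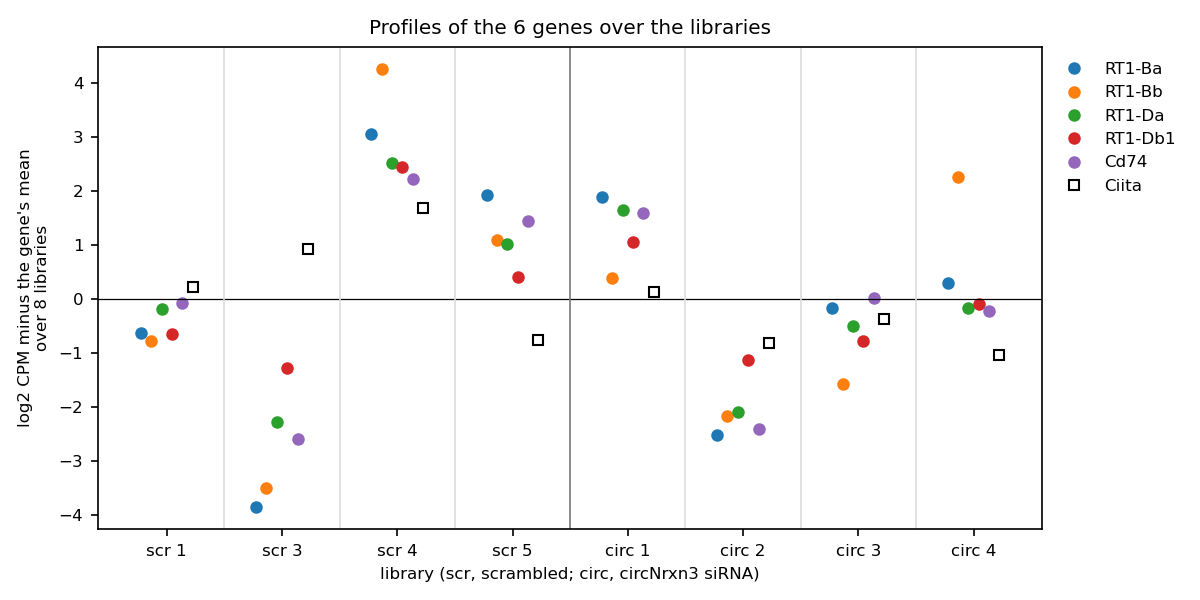
Log2 CPM of each gene minus its mean over the 8 libraries (vertical axis), by library, with filled circles for the class II genes and Cd74 and open squares for Ciita. The circles move together between libraries of both groups, from below 0 in scrambled replicate 3 to above 0 in scrambled replicate 4, and the squares do not follow in scrambled replicates 3 and 5.

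The ratio of the alpha to the beta chain within a library does not depend on library scaling. The ratio does depend on the gene model lengths, in bases 2502 for RT1-Da, 3193 for RT1-Db1, 1361 for RT1-Ba and 4048 for RT1-Bb. In scrambled replicate 4, for example, RT1-Ba had 255 counts and RT1-Bb 467, and the ratio per kb was 1.62. In counts per kb, RT1-Da stood at 3.01 to 4.76 times RT1-Db1 in 6 libraries, and at 1.58 and 1.60 times in scrambled replicate 3 and circNrxn3 siRNA replicate 2, the 2 libraries with the lowest levels. The exact 95% binomial intervals of those 2 were 0.979 to 2.55 and 1.01 to 2.58, and they cover counting error only. They did not reach the interval of scrambled replicate 4 (2.96 to 3.67), which had the most counts. Both overlapped the interval of circNrxn3 siRNA replicate 4 (2.29 to 3.98) but no other of the 6 libraries.

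The B locus ratio varied more. RT1-Ba stood at 0.928 times RT1-Bb in circNrxn3 siRNA replicate 4 (95% interval 0.612 to 1.37) and at 1.62 times in scrambled replicate 4 (1.39 to 1.90). In scrambled replicate 5 it stood at 6.83 times (4.75 to 9.96) and in circNrxn3 siRNA replicate 1 at 11.2 times (7.56 to 16.9). These 4 libraries had 143 or more counts of the 2 chains together, and the first and last are separated by far more than counting error. Animals at similar levels of RT1-Ba, such as scrambled replicate 5 (3.43 CPM) and circNrxn3 siRNA replicate 1 (3.35 CPM), had RT1-Bb at 1.5 and 0.892 CPM. The intervals of the ratio in these 2 libraries overlapped. The animals are outbred and RT1 genes are highly polymorphic, and whether alleles that differ from the reference changed the share of reads counted was not tested.

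No difference between the groups was found in either ratio. Scrambled replicate 3, with 0 counts of both B locus genes, has no ratio and was left out for that pair. The log2 ratio of RT1-Ba over RT1-Bb, with 0.5 counts added to each gene, was 1.87 ± 1.06 in scrambled (SD, n = 3) and 2.12 ± 1.73 in circNrxn3 siRNA libraries (SD, n = 4; 2-sided exact permutation p = 0.8, adjusted over 2 ratios 0.8). That of RT1-Da over RT1-Db1 was 1.69 ± 0.73 and 1.60 ± 0.67 (SD, n = 4 each; exact permutation p = 0.8, adjusted 0.8). The smallest p that the 35 and 70 arrangements allow is 0.0286 in both cases. Cd74 over RT1-Da ranged from 10.6 to 19.2 per kb, a narrower range than either chain ratio. This last ratio was added after the data were seen and was not tested.

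**Figure D4:**
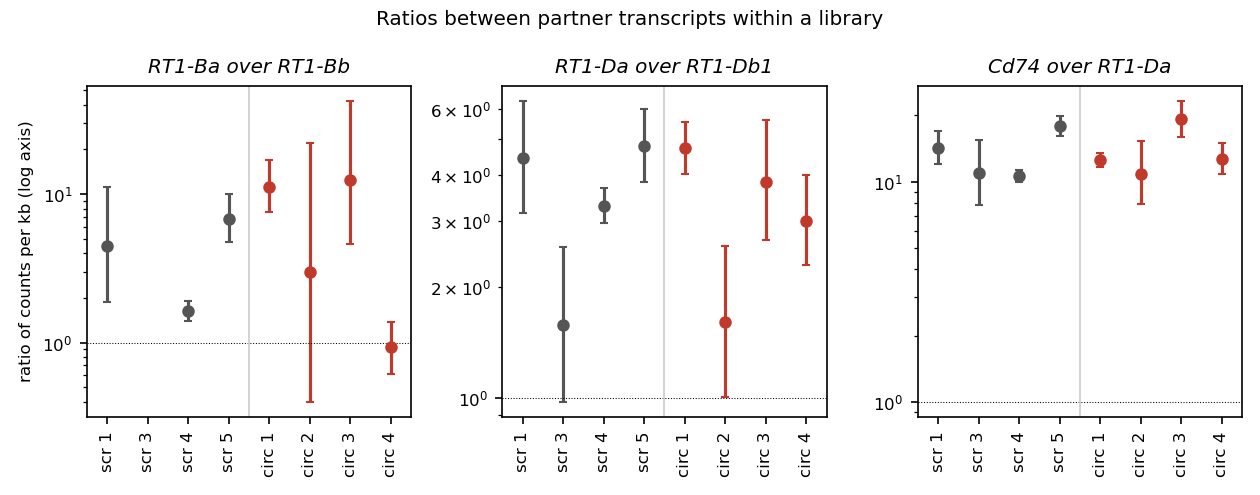
Ratio of counts per kb between 2 genes within a library (log axis), with exact 95% binomial intervals for counting error, in scrambled (grey) and circNrxn3 siRNA (red) libraries; scrambled replicate 3 has no point for RT1-Ba over RT1-Bb because both had 0 counts. RT1-Ba over RT1-Bb runs from 0.928 to 12.5, while Cd74 over RT1-Da stays between 10.6 and 19.2.

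The other genes of the class II pathway were read from lists, and none of their members was called (edgeR, adjusted p under 0.05). The list of other class II genes and peptide loading had 11 of 15 members tested, 5 above and 6 below 0, and the median log2 fold change was -0.04. The 4 of smallest p were Ctsh, a lysosomal protease (-0.24), RT1-DMa (-0.45), RT1-DMb (-1.81) and March1, which marks class II for degradation (0.43). RT1-DMa and RT1-DMb encode the chaperone that exchanges the invariant chain remnant for peptide. RT1-DMb had 2, 7, 8 and 480 counts in the scrambled and 0, 41, 12 and 96 in the circNrxn3 siRNA libraries. Scrambled replicate 4, the library with the most class II mRNA, thus held 8 counts of it, and scrambled replicate 5 the most. RT1-DMa stayed between 23 and 62 counts in all 8.

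RT1-DOa and RT1-DOb, which encode the modulator of that chaperone, did not pass the filter. RT1-DOa had 4, 0, 40 and 2 counts in the scrambled and 12, 0, 2 and 17 in the circNrxn3 siRNA libraries. RT1-DOb had 5, 0, 17 and 9 and 10, 2, 2 and 12. Both were highest in scrambled replicate 4 and at 0 in scrambled replicate 3. RT1-Db2, a neighbouring beta chain gene, had 3 counts in all, and RT1-Ha 0. Ctss, the endosomal protease that makes the last cut in the invariant chain, was at 123 to 224 CPM with a log2 fold change of 0.09. Ifi30, the lysosomal thiol reductase GILT, ranged from 6.95 to 16.5 CPM and Sppl2a, which clears the invariant chain stub from the membrane, from 14.1 to 19.7 CPM. These last 3 genes were chosen after their values were seen.

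Factors of class II promoters and the chromatin cofactors of CIITA had 12 of 13 rows tested, 6 above and 6 below 0, with a median of 0.002, which turned to -0.01 with RLE size factors. Nfya, a subunit of NF-Y, had a log2 fold change of 0.30, Kat2b 0.32, Nfyb 0.10 and Rfxank, of the RFX complex, -0.15. Rfx5, its DNA-binding subunit, stayed at 25.8 to 34.8 CPM in all libraries, with scrambled replicate 4, the highest in class II mRNA, at 25.8 CPM, the lowest. Over all libraries the Pearson r with the mean profile of the 6 genes was -0.07 for Rfx5 and 0.58 for Rfxank. The median r of this list was -0.05. Rfx5 was chosen after its values were seen.

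Interferon gamma signalling and regulators of Ciita had 15 of 18 genes tested, 5 above and 10 below 0, and the median log2 fold change was -0.11. Those of smallest p were Usf1 (-0.20), Irf4 (-0.51), Socs3 (-0.93) and Jak1 (0.13). Ifng itself had 7 counts over all libraries. Socs1, a feedback inhibitor induced by interferon gamma and chosen after its values were seen, was at 4.65, 1.73, 7.66 and 3.84 CPM in the scrambled and 5.54, 1.57, 3.49 and 4.16 CPM in the circNrxn3 siRNA libraries. Like the class II genes, it was highest in scrambled replicate 4 and lowest in circNrxn3 siRNA replicate 2 and scrambled replicate 3.

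Among ligands and co-receptors of CD74, 5 of 6 genes were tested, 1 above and 4 below 0, with a median of -0.32. CD44, the co-receptor that signals for CD74, stood at -1.07 on the log2 scale, standard error 0.33 (unadjusted p = 0.00893, edgeR adjusted p = 0.833). Mif, its cytokine ligand, had -1.23, with 20.5 CPM in scrambled replicate 1 and 2.74 to 4.83 CPM in the other 7 libraries. Ddt, a relative of Mif, had -0.19 and the receptor Cxcr4 -0.32. Of the co-stimulation list 5 of 8 genes were tested, 4 above and 1 below 0, with a median of 0.19. Cd274, Icam1, Cd83 and Cd40 had 0.75, 0.20, 0.06 and -0.20.

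Markers of cells that can carry class II were read beside these values, and their part in the result was not tested. Microglia markers, all 13 in the table, summed to 323 to 459 CPM in scrambled and 318 to 456 CPM in circNrxn3 siRNA libraries. Scrambled replicates 3 and 4, lowest and highest in class II mRNA, were at 323 and 355 CPM. The 9 markers of border and perivascular macrophages found summed to 7.45 to 15.4 and 8.72 to 9.73 CPM, with the lowest value in scrambled replicate 4. The 9 dendritic cell markers summed to 7.99 to 18.4 and 13.4 to 21.5 CPM, lowest in scrambled replicate 3, with Cd209a at 0 in every library. Flt3, with 222 to 563 counts, made up most of that sum. Some of the scarcer dendritic cell genes had another pattern. Itgax had 0, 0, 61 and 8 counts in the scrambled and 3, 0, 4 and 3 in the circNrxn3 siRNA libraries. Clec9a had 0, 0, 43 and 7 against 0, 4, 6 and 1, and Xcr1 4, 0, 27 and 1 against 5, 0, 0 and 0. All 3 were highest in scrambled replicate 4, the library with the most class II mRNA, and none of them passed the filter on low counts. Ccr7 and Batf3 were also highest in that library. Btla was not, with 3 counts there and 11 in circNrxn3 siRNA replicate 1, and Zbtb46 was highest in circNrxn3 siRNA replicate 2 (3.36 CPM). Of the 11 T cell markers 4 were tested. The sums of all 11 ran from 7.96 to 11.8 and from 6.12 to 8.03 CPM, highest in scrambled replicate 4, with Cd5 at 0 throughout. Cd4 and Lck made up most of each sum. Cd4 was highest in scrambled replicate 5 (5.17 CPM) and Lck in scrambled replicate 4 (3.87 CPM). The 8 B cell markers summed to 0.918 to 2.09 and 0.630 to 1.19 CPM, highest in scrambled replicate 4 (2.09 CPM) and next in scrambled replicate 3 (1.97 CPM). Of them, Ms4a1 had 13 of its 14 counts and Cd79b 19 of its 30 counts in scrambled replicate 4, whereas Pax5 was highest in scrambled replicate 3, with 22 counts. The marker genes named here one by one were chosen after their values were seen.

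The 8 monocyte and neutrophil markers found summed to 57.8 to 121 CPM in scrambled and 49.6 to 69.1 CPM in circNrxn3 siRNA libraries, with Ccr2 at 0 in every library. The members of that list did not share one pattern, and their median r with the class II profile was 0.04. S100a8 (r = -0.72) and S100a9 (r = -0.46) were highest in scrambled replicate 3, with 55 and 56 counts. Lyz2 had an r of 0.55. Plac8 (r = 0.90) had 8.19, 0.775, 19.8 and 10.6 CPM in the scrambled and 18.6, 0.261, 2.12 and 2.87 CPM in the circNrxn3 siRNA libraries. The group values for Plac8 overlapped (log2 fold change -0.71, edgeR adjusted p = 0.930). Red blood cell genes summed to 608 to 2440 and 359 to 760 CPM. Log2 fold changes lay below 0 for 6 of 6, where 48.7% of all genes did. Their median was -1.15, and -0.67 without scrambled replicate 3. Of the 6, 5 had an unadjusted edgeR p under 0.05, all lower, against 5.59% of all genes, or 3.20% counting lower genes alone. After adjustment 0 were called. All 6 mark the same cells and were highest in scrambled replicate 3, so they are not separate observations. The members of the endothelial list summed to 83.3 to 105 and 95.2 to 117 CPM, with Cldn5 listed at 0, and those of the meningeal list to 37.3 to 50.2 and 28.8 to 45.8 CPM.

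The 10 genes most like the class II profile over the 8 libraries were Cxcl13, Kars, Il2rg, Gimap1, Cxcl16, Lsp1, Rab20, Renbp, Ptprcap and Rac2. Likeness was the Pearson r of log2 CPM with the mean centred profile of the 6 genes, among 12516 other protein-coding genes with a mean of at least 1 CPM. It is a description over 8 libraries that share depth and tissue, and 34 genes had an r above 0.9. Cxcl13, a chemokine that draws B cells, led with r = 0.98 (Spearman rho 0.98). It was at 1.72, 0.0895, 25.0 and 3.23 CPM in the scrambled and at 3.81, 0.0653, 0.396 and 2.49 CPM in the circNrxn3 siRNA libraries. Its highest and lowest libraries were thus far apart, as for RT1-Ba.

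Il2rg, the common gamma chain of interleukin receptors, had r = 0.96 and ran from 0.239 to 4.11 CPM. Gimap1, a GTPase of lymphocytes (0.95), Cxcl16, a chemokine of antigen-presenting cells (0.95), and Lsp1, an actin-binding protein of leukocytes (0.94), also had high values. Ptprcap, a partner of the leukocyte phosphatase CD45 (0.94), and Rac2, the Rac GTPase of blood cells (0.94), came last. The others were Kars, the lysyl-tRNA synthetase (0.97), Rab20 (0.94) and Renbp, the renin-binding protein (0.94). Kars moved little, from 85.9 to 100.5 CPM, and Renbp from 6.89 to 9.15 CPM, whereas Rac2 ran from 3.61 to 13.9 CPM. With any 1 library left out, r for the 10 genes, chosen on all 8 libraries, was 0.89 to 0.99. None of the 10 was called between the groups (edgeR adjusted p of 0.838 to 0.985).

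**Figure D5:**
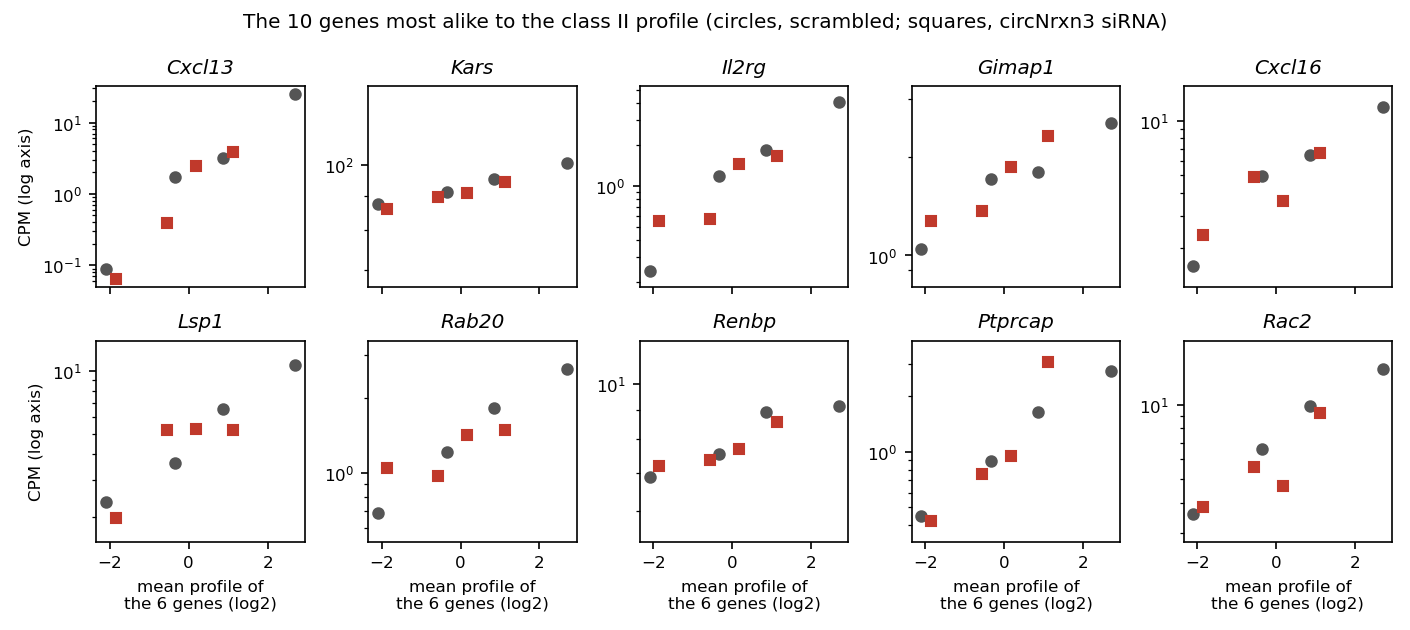
CPM (log axis) of the 10 genes most alike against the mean centred log2 profile of the class II genes, Cd74 and Ciita (horizontal axis), 1 point per library (grey circles, scrambled; red squares, circNrxn3 siRNA). Points of both groups lie along one rising band, from 0.0653 to 25.0 CPM for Cxcl13 and from 85.9 to 100.5 CPM for Kars. The genes were chosen for their r with this profile in these libraries, so the rise follows from the choice.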

How the data were processed

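Per the labels' protocols, poly-T selected RNA was made into strand-marking (dUTP) libraries, 1 per animal. The authors deposited raw read counts per gene and FPKM values, per the file headers. Per the submitters' processing notes, the build was rn6 and the tools were featureCounts 1.5.0-p3, StringTie 1.3.3b, HISAT2 2.0.5 and fastp, with no roles. Whether counting used strand is not known here; 0 gene models overlapped the 6 genes. Samples were grouped and columns matched by title. Counts were fitted with edgeR 4.0.16 (R 4.3.3): filterByExpr with a minimum count of 10 (16573 genes), TMM factors, and the robust quasi-likelihood test, 2-sided, with Benjamini-Hochberg adjustment over all genes. The standard error is the fold change over the square root of F. Log2 CPM used a prior count of 2. DESeq2 1.42.0, limma 3.58.1, other scalings, filters and left-out libraries were alternatives. The code was tested on simulated data. Libraries within a group differed by more than sampling noise (chi-square divided by its degrees of freedom, 23.2 to 47.4). The p-values set the difference between the groups against the spread between animals. The members and lists were chosen with earlier results of these data known. Named were the 6 genes, Nrxn3, up to 4 genes of smallest p per list and the 10 most alike genes; RT1-DOa, RT1-DOb, RT1-Db2, RT1-Ha, Ifng and the genes at 0 in all libraries, which had too few counts to be tested, and the other genes named were chosen after their values were seen. Promoters came from RefSeq (GRCr8), and coordinates of genes are those of the files (rn6).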

Additional observations from a re-analysis of the deposited data

Results flagged for a closer look

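In 77 groups of 4 libraries, tested with Dixon's ratio for a library far from the other 3 of its group, 6 stood out. The limit used flags about 1 in 20 groups by chance only where values are normally distributed. The ratio was taken on CPM, which is skewed for several of these genes, and some genes were chosen from these data. How many flags chance gives here is thus not known. RT1-Bb was at 13.9 CPM in scrambled replicate 4, far above the rest of its group. RT1-DMb was at 16.3 CPM in scrambled replicate 5 and at 0.0716 to 0.238 CPM in the other 3 scrambled libraries. Plac8 was at 18.6 CPM in circNrxn3 siRNA replicate 1, Mif at 20.5 CPM in scrambled replicate 1 and Cxcl13 at 25.0 CPM in scrambled replicate 4. Lsp1 was at 1.99 CPM in circNrxn3 siRNA replicate 2, below the others of its group.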

How the results depend on the processing

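No setting that gave an adjusted p called any of the 6 genes (0.491 to 1.00); DESeq2 gave one for Cd74 alone. The count of genes called over the table was 18 with DESeq2, and 0 to 1 with single libraries left out (1 without circNrxn3 siRNA replicate 2 and 1 without replicate 3), against 0. Limma-voom turned RT1-Ba to 0.28. Deviations of same-numbered libraries from the group means had r of 0.37, 0.30 and 0.09 for numbers 1, 3 and 4. Scrambled replicates 1 and 3 correlated best with their own number, the highest values of all pairs, but replicate 4 did not (0.22 with number 3), so the numbers were not taken to pair the animals. With the replicate block over these 6 libraries 0 genes were called. The log2 fold change turned to 1.04 for RT1-Ba, 0.43 for RT1-Da and 0.73 for Cd74. It stayed below 0 for RT1-Bb (-0.19), RT1-Db1 (-0.08) and Ciita (-1.52). The log2 ratio of RT1-Da over RT1-Db1 turned to 0.41 under the pairing. With 1 library left out, log2 fold changes ran from -2.17 to 0.0044 for RT1-Ba, from -3.29 to 0.90 for RT1-Bb, from -1.88 to 0.27 for RT1-Da, from -1.60 to 0.37 for RT1-Db1, from -1.63 to -0.02 for Cd74 and from -1.74 to -0.87 for Ciita. The difference in the chain ratios ran from -0.33 to 0.99 for the B locus (0.33 with scrambled replicate 3 kept through the added counts, a setting chosen after seeing the data) and from -0.43 to 0.23 for the D locus. With a minimum of 1 CPM in 4 libraries RT1-Bb and Ciita were not tested. Scaling by RLE or upper quartile moved the sign of none of the 6 genes. Where a sign turned, the cause was not tested beyond the samples left out. Counts of 0 to 47 limit RT1-Ba, RT1-Bb and Ciita in the low libraries.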

Other observations

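MHC class I genes, which present peptides from inside the cell, followed the class II profile in part. The list of class I genes and their peptide loading had 30 rows tested, 14 above and 16 below 0 (median log2 fold change -0.02, edgeR, 0 called and 0 at an unadjusted p under 0.05). Their median r with the class II profile was 0.49, and 7 had an r of at least 0.8, where 1.31% of the 12516 protein-coding genes did. Others went against it: RT1-S2 had r = -0.70, RT1-M5 -0.51, Tapbpl -0.35 and 1 of the 2 Tap2 models -0.47. B2m, the light chain of class I, was at 412, 250.2, 508 and 466 CPM in the scrambled and at 601, 302, 412 and 309 CPM in the circNrxn3 siRNA libraries. It was lowest in scrambled replicate 3 and circNrxn3 siRNA replicate 2, as Cd74 was, over a much narrower range. RT1-A2 ran from 3.79 CPM in scrambled replicate 3 to 30.7 CPM in scrambled replicate 4, and RT1-CE5 from 1.25 CPM to 11.4 CPM, with the latter in circNrxn3 siRNA replicate 1. Class I genes of the RT1 region resemble each other closely and their reads may be split or shared, so single genes are uncertain. Calr and Pdia3, which fold class I chains along with many other proteins, had r of 0.05 and 0.28. B2m, RT1-A2, RT1-CE5, RT1-M5, Tapbpl and Calr were chosen after their values were seen.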
